A study of Mus musculus with 69 samples.

Results

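Mut43 is one of the H3.3K27R clones of J1 mouse embryonic stem cells (ESCs), and its mRNA-seq libraries were compared here with those of the wild-type (WT) line. The members were 2 Mut43 libraries and 2 WT libraries, 4 of the 69 samples of the series, chosen by the line and assay in their labels. J1 is a male ESC line of strain 129S4/SvJae, derived from the inner cell mass of the blastocyst. In Mut43, labelled H3.3K27R, both endogenous alleles of H3f3a and of H3f3b, the genes for histone variant H3.3, had been edited with CRISPR-Cas9 so that lysine 27 is replaced by arginine. WT carried neither edit. Both lines were grown on feeder cells and moved to feeder-free culture for 2 passages before harvest. No further treatment is given in the labels. Mut43 is 1 clone, so a difference from WT can belong to the edit or to the clone, and these cannot be told apart in this pair of lines. The second clone, Mut18 (2 libraries), entered the fit to help estimate the spread and is compared with Mut43 at the end. The series also holds ChIP-seq of histone marks and ATAC-seq of the same lines, and its stated purpose was to ask what losing H3K27 acetylation does to enhancers and transcription.

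H3.3 is a histone H3 variant that is placed into chromatin outside DNA replication, above all at active genes, enhancers and regulatory regions. Acetylation of its lysine 27 is a common mark of active enhancers, and methylation of the same residue by Polycomb complexes marks silent developmental genes. Arginine cannot carry either mark. ESCs move between a naive state, close to the early epiblast, and a primed state that precedes the germ layers, and small fractions of a culture pass through states that resemble the 2-cell embryo or begin to differentiate.

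The counts per library were nearly equal, with totals between 15014430 and 15143998 over 16263 genes. Of these, 14061 passed a filter on low counts and were tested. Genes whose 2 WT libraries lay more than 2 times apart (339) were then set aside, which left 13722, here called kept genes. The setting aside touched mostly weakly expressed genes, whose median over genes was 12.2 normalized counts in WT, against 331 for kept genes. Among genes that passed the thresholds, it removed 62 higher and 69 lower in Mut43. In 64 of those 69, WT replicate 1 was above WT replicate 2, so this library stands apart. They include Fabp4, a fatty acid carrier of fat cells, with 1734 and 22.5 normalized counts in the WT libraries and 13.2 and 22.3 in Mut43, the fatty acid receptor Cd36 (732 and 8.82 in WT, 3.05 and 13.2 in Mut43), and the collagen Col6a1 (428 and 57.8 in WT, 29.5 and 21.3 in Mut43). These 3 genes were picked with their values known, and in each the second WT library was far closer to Mut43 than the first. For some lists the count of called members without WT replicate 1 is given beside the main count. It is not given for every list where it changed.

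The 2 edited genes were expressed in every library. For H3f3a the WT libraries gave 10509.7 and 10937 normalized counts and the Mut43 libraries 9329.7 and 8436, and both Mut43 values lay below both WT values. Its log2 fold change was -0.27 (SE 0.0467, adjusted p = 2.90e-05). This and every other adjusted p here comes from the quasi-likelihood test of edgeR, corrected by the Benjamini-Hochberg method. H3f3b stood at 12378 and 12398 in WT and at 13556 and 13386 in Mut43. Its log2 fold change was 0.12 (SE 0.0406, adjusted p = 0.0162), and both Mut43 values lay above both WT values. The difference no longer passed the test with scaling by library totals (0.074) or the upper quartile (0.098), or without WT replicate 1, Mut43 replicate 1 or Mut43 replicate 2 (0.12 to 0.13). H3f3b lies on chromosome 11, whose genes were shifted upwards as described below. Counts per gene do not read the edited codon, so they check expression only, and reads of H3f3a and H3f3b can be shared with pseudogenes.

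Of the embryonic stem cell markers, Pou5f1, a factor without which ESCs lose their identity, had 12092 and 12814 normalized counts in WT and 10288 and 10258 in Mut43, which is -0.28 on the log2 scale (adjusted p = 8.18e-06). Nanog, its partner in the pluripotency network, had 4583 and 4618 in WT and 5303 and 5318 in Mut43 (0.21, adjusted p = 2.27e-04). All 10 markers of the list were expressed, none was called, and their summed level was 71743 and 74324 in WT and 78867 and 80609.8 in Mut43. The libraries thus carried the markers of the labelled cell type in both lines.

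A gene was called when its adjusted p was under 0.05 and it differed by more than 2-fold. By that rule 429 genes were higher in Mut43, 3.13% of kept genes, and 888 were lower, 6.47%. Without the fold threshold 3155 genes, 23% of kept genes, passed the test as higher and 3292, 24%, as lower. Most changes were small, since 74.0% of kept genes had a log2 fold change under 0.5 in size, and the median size was 0.235. The 2 Mut43 libraries did not overlap the 2 WT libraries in 73.5% of kept genes, so lack of overlap alone says little about a gene. It held for all 429 genes called higher and all 888 called lower, so it adds nothing to a call. Together the called genes made up 9.6% of kept genes, and those past the test alone 47%. Averages of 50 normalized counts or more in either line were reached by 225 of the genes called higher and 511 of those called lower, and the genes named below come from these unless stated. The p-values measure the spread between these libraries, described as biological replicates.

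**Figure D1:**
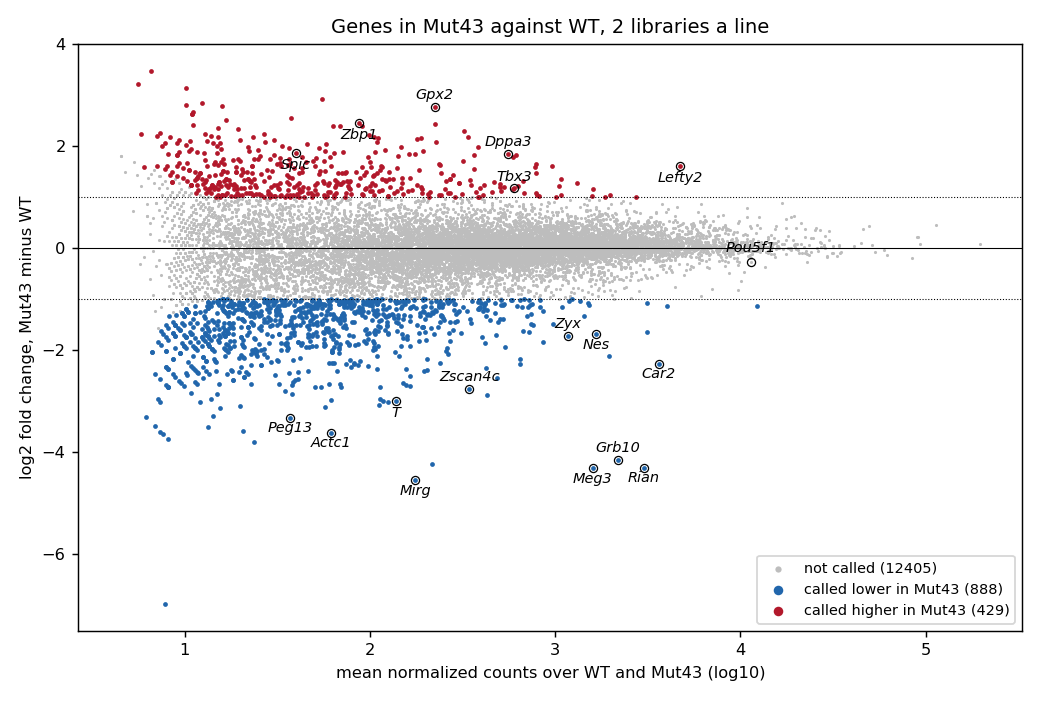
Log2 fold change of Mut43 over WT (vertical axis) against the mean normalized count over both lines (horizontal axis, log10) for the 13722 kept genes, with 2 libraries a line. Red points are the 429 genes called higher, blue points the 888 called lower and grey points the rest, and the dotted lines mark a 2-fold change. Pou5f1 lies among the most highly expressed genes close to the zero line, and Meg3, Rian, Mirg and Grb10 lie below -4.

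The 12 largest rises were in genes of varied function. Gpx2, a glutathione peroxidase that clears hydroperoxides, had 56.6 and 56.8 normalized counts in WT and 382 and 397 in Mut43, a change of 2.78 on the log2 scale (SE 0.117, adjusted p = 3.83e-16). Tex40, a subunit of the sperm calcium channel, rose by 2.93 from 12.7 and 12.7. The others were Grin1, an NMDA receptor subunit (2.56), Zbp1, a sensor of Z-form nucleic acids (2.45), Lgals9, a galectin (2.44), Myo1g, a myosin of blood cells (2.40), Ddx60, an antiviral helicase (2.40), Hormad2, a meiotic chromosome protein (2.40), Foxn4, a forkhead factor, Pnma5 (2.23), Hpcal4, a neuronal calcium sensor (2.19), and Krt42, a keratin (2.17). Lack of overlap between the lines was a condition for picking these 12. Lgals9, Myo1g, Hormad2 and Krt42 lie on chromosome 11.

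Genes with the largest falls were led by imprinted transcripts, which are expressed from one parental allele. Meg3, Rian and Mirg are noncoding RNAs of the maternal allele of 1 domain on chromosome 12. Meg3 (GRCm38, chr12:109541001-109571726, plus strand, a lincRNA in GENCODE) had 3048 and 3025 normalized counts in WT and 141 and 162 in Mut43, a change of -4.32 on the log2 scale (SE 0.0722, adjusted p = 2.71e-25). Rian fell from 5861 and 5634 to 290.0 and 288 (-4.31) and Mirg from 338 and 336 to 12.2 and 16.2 (-4.55). The 3 genes were 19.9 to 23.5 times lower, and neither Mut43 library came near WT. AF357359, annotated within the same domain, had a log2 fold change of -4.22, but it lies inside Rian, so the reads of these genes may be shared. Dlk1 and Dio3, protein-coding genes of the paternal allele of the same domain, changed less and also fell, by 1.03 and 1.08 on the log2 scale.

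The next most reduced imprinted gene was Grb10, an adaptor that restrains insulin and IGF receptor signalling and is maternally expressed in most embryonic tissue. It had 4163 and 4065 normalized counts in WT and 226 and 238 in Mut43 (-4.15, SE 0.0610, adjusted p = 1.60e-26), although it lies on chromosome 11, where most genes were higher. Of 15 kept maternally expressed genes, 8 were called lower and none higher, with a median log2 fold change of -1.15 against -0.0032 over all kept genes. The other called members were Gnas, the stimulatory G protein alpha subunit (-1.65), H19, a growth-limiting noncoding RNA (-1.63), Cdkn1c, a cyclin-dependent kinase inhibitor (-1.15), and Asb4 (-1.71). Igf2r and Phlda2, from the same list, were at -0.23 and 0.24.

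Of 20 kept paternally expressed genes, 7 were called lower and 1 higher, with a median of -0.39. Peg13, a noncoding RNA, fell from 72.3 and 62.7 normalized counts to 3.05 and 10.1 (-3.33). Magel2 and Ndn, neighbours in the Prader-Willi region, fell by 1.82 and 1.37 on the log2 scale, and Nnat, a small membrane protein, by 1.39. Zrsr1, a splicing factor gene on chromosome 11, was the member called higher (1.04), a call that was lost with scaling by library totals. Genes of both parental origins thus fell, and Igf2, Mest and Peg3 fell by smaller amounts (0.20, 0.28 and 0.29). Without WT replicate 1 the paternally expressed list had 5 genes called lower, and the maternally expressed list kept its count of 8.

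Among the other genes with the largest falls, Actc1, the cardiac actin, fell by 3.63 and is described with the contractile genes. St6gal2, a sialyltransferase, fell by 3.12 and Calcr, the calcitonin receptor, by 3.08 on the log2 scale. Zscan4b and T belong to lists below.

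Naive pluripotency genes were higher in Mut43. All 17 of the list were kept, 16 passed the test as higher, and 4 of these were called, with a median log2 fold change of 0.71. Dppa3 (Stella), which protects maternal methylation in the zygote, had 254 and 231 normalized counts in WT and 855 and 890.0 in Mut43 (1.85, SE 0.0856, adjusted p = 2.49e-15). Prdm14, which restrains de novo methylation and the primed state, had 137 and 158 in WT and 367 and 371 in Mut43 (1.33). Tbx3 rose by 1.17 and Spic, expressed at 12.7 and 21.6 in WT, by 1.86. As in every gene called higher, the lowest Mut43 library was above the highest WT library in each of these. Below 2-fold were Zfp42 (0.79), Nr5a2 (0.72), Klf2 (0.71), Esrrb (0.44) and Klf4 (0.34), and Gbx2 was the member that fell (-0.43). The 15 core pluripotency genes, of which Zfp42 and Esrrb are also naive genes, held none that was called, with values from -0.28 to 0.79.

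Primed pluripotency genes were lower. Of 17 kept, 13 passed the test as lower and 7 were called, with a median of -0.75. Fgf5, the growth factor that marks the primed epiblast, had 279 and 292 normalized counts in WT and 41.7 and 45.7 in Mut43 (-2.71, SE 0.141, adjusted p = 3.09e-14). Pim2, a kinase, fell from 2941 and 3369 to 704 and 757 (-2.11). The transcription factors Sox3 and Pou3f1 (Oct6) fell by 1.99 and 1.64, and N-cadherin (Cdh2) by 1.33. For each of them the lines did not overlap, as in every gene called lower. Dnmt3b, a de novo methyltransferase, fell by 0.80, short of 2-fold, while Otx2, a driver of the primed state, stood at 0.019 with an adjusted p of 0.836 and Dnmt3a at -0.016.

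**Figure D2:**
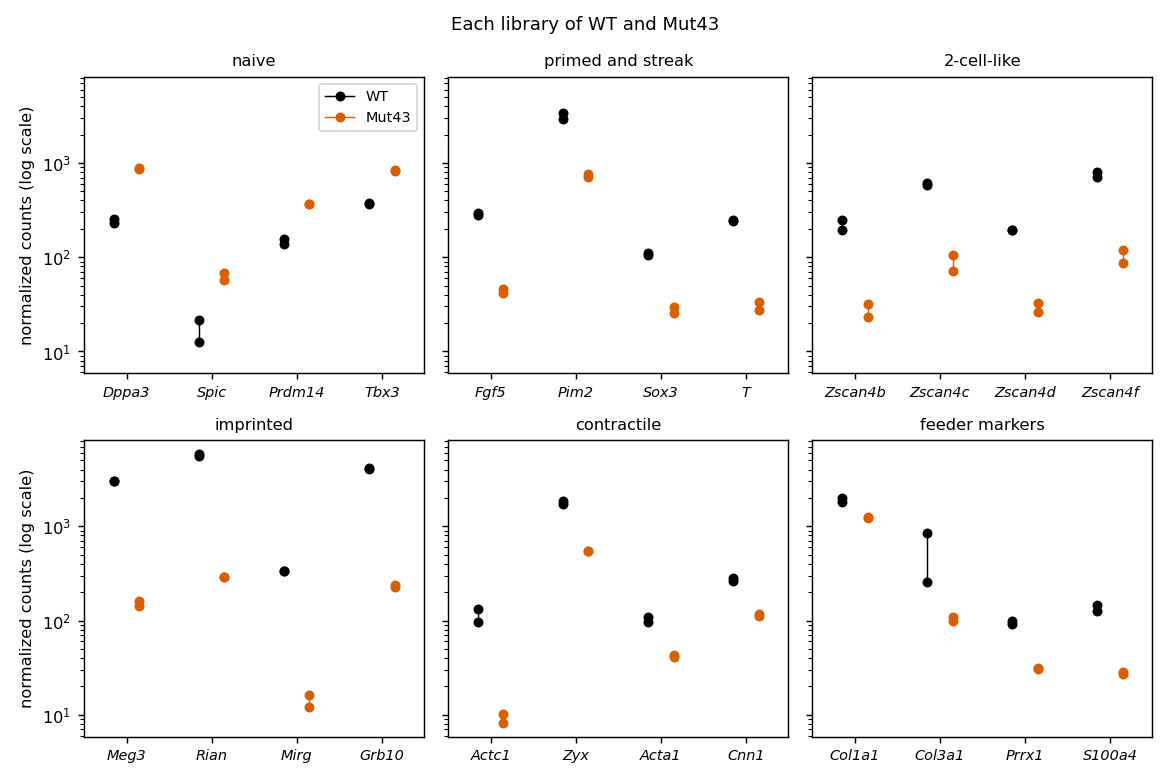
Normalized counts (vertical axis, log scale) of 24 genes in each library, black for the 2 WT and orange for the 2 Mut43 libraries, with a line joining libraries of a line. In 23 of the genes the WT libraries are at most 2 times apart and the lines do not overlap. Col3a1 is the one whose WT libraries differ by more than 2 times, with 843 and 257.

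Genes of the primitive streak and mesendoderm, the first embryonic cells to leave the epiblast, were mostly lower in Mut43. Of 10 kept members, 5 were called lower (3 without WT replicate 2) and 1 higher, with a median of -0.99. T (Brachyury), which defines the streak, had 247 and 243 normalized counts in WT and 27.5 and 33.5 in Mut43 (-3.00, SE 0.162, adjusted p = 5.36e-14). Kdr, a VEGF receptor, fell by 1.78 and Wnt3, which starts the streak, by 1.09; the call of Wnt3 was lost without Mut43 replicate 1 (-0.93) or WT replicate 2 (-0.98). Hand1, on chromosome 11, was the member called higher (1.49), and it is also a trophoblast gene. Sp5, a target of canonical Wnt signalling like T, fell from 126 and 116 to 15.3 and 21.3 (-2.72). Of 13 kept Wnt targets, T, Sp5 and Nkd1 (-1.03) were called lower. Notum, an extracellular Wnt inhibitor on chromosome 11, was called higher (1.17), and Axin2 stood at 0.063 with an adjusted p of 0.733. The median was -0.26, and 5 of the 13 lay on chromosome 11. With the genes of that chromosome left out, 3 of 8 kept targets were called lower, none higher, and the median was -0.73.

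Hox genes, the classic Polycomb targets that pattern the body axis, were lower. They were weakly expressed in WT, and 21 of 33 were kept. Of these, 16 were called lower, none was called higher, and the median was -1.50. Hoxd13 had 56.6 and 69.6 normalized counts in WT and 33.6 and 24.4 in Mut43 (-1.12), and its call was lost without Mut43 replicate 2 (-0.91) or WT replicate 2 (-0.96). With WT replicate 1 or WT replicate 2 left out, 14 or 12 members were called lower. Of the called members, 6 were Hoxb genes of chromosome 11, whose genes were mostly higher, among them Hoxb2 (-2.21) and Hoxb8 (-1.92), both under a mean of 50 normalized counts.

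Neural genes were also lower, with 7 of 12 kept members called lower (6 without WT replicate 1), none called higher and a median of -1.20. Nes (nestin), an intermediate filament of neural progenitors, had 2633 and 2453 normalized counts in WT and 796 and 795 in Mut43 (-1.68, SE 0.0535, adjusted p = 1.19e-18). Sox11 fell by 1.24, Map2, a microtubule protein of dendrites, by 1.54, and Nrcam, an adhesion molecule, by 1.69. Tubb3, a neuronal tubulin, went the other way (0.66). It was also the most abundant gene of a shorter list of 6 neural markers, 4 of them in the table, whose summed level was higher in Mut43 (2367 and 2350.2) than in WT (1629.6 and 1624). In that shorter list Sox1 was called lower and Pax6 and Tubb3 passed the test as higher, so a sum and a count of members point in different directions.

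Genes for cell guidance fell as well. In the list of ephrins, semaphorins and their receptors, 16 of 46 kept genes were called lower (14 without WT replicate 1) and none higher, with a median of -0.38, and 9 passed the test as higher below 2-fold. Sema3e, a secreted semaphorin, had 1355 and 1338 normalized counts in WT and 399.9 and 355 in Mut43 (-1.83). Sema6a fell from 675 and 740.0 to 137 and 139 (-2.35), Sema3c by 2.04 and the ligand Efna5 by 1.76. The 2 lines did not overlap in any of these, as in every gene called lower.

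The 2-cell-like genes, expressed in a small and fluctuating fraction of ESCs, showed the lowest median of any list, -2.46. Of 10 kept members 9 were called lower (8 without WT replicate 1). Zscan4f, a telomere-associated zinc finger gene, had 714 and 797 normalized counts in WT and 118 and 86.3 in Mut43 (-2.88, SE 0.110, adjusted p = 6.69e-17). Zscan4c fell from 586 and 613 to 105 and 72.0 (-2.76), Zscan4b by 3.01 and Zscan4d by 2.73. The Zscan4 genes are near-identical copies, so reads can be split among them and their values are not independent. Outside that family, Gm12794 fell by 2.81 and Zfp352 by 1.45 on the log2 scale. In bulk RNA, fewer cells in such a state and less RNA per cell cannot be told apart, which holds for every list here.

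**Figure D3:**
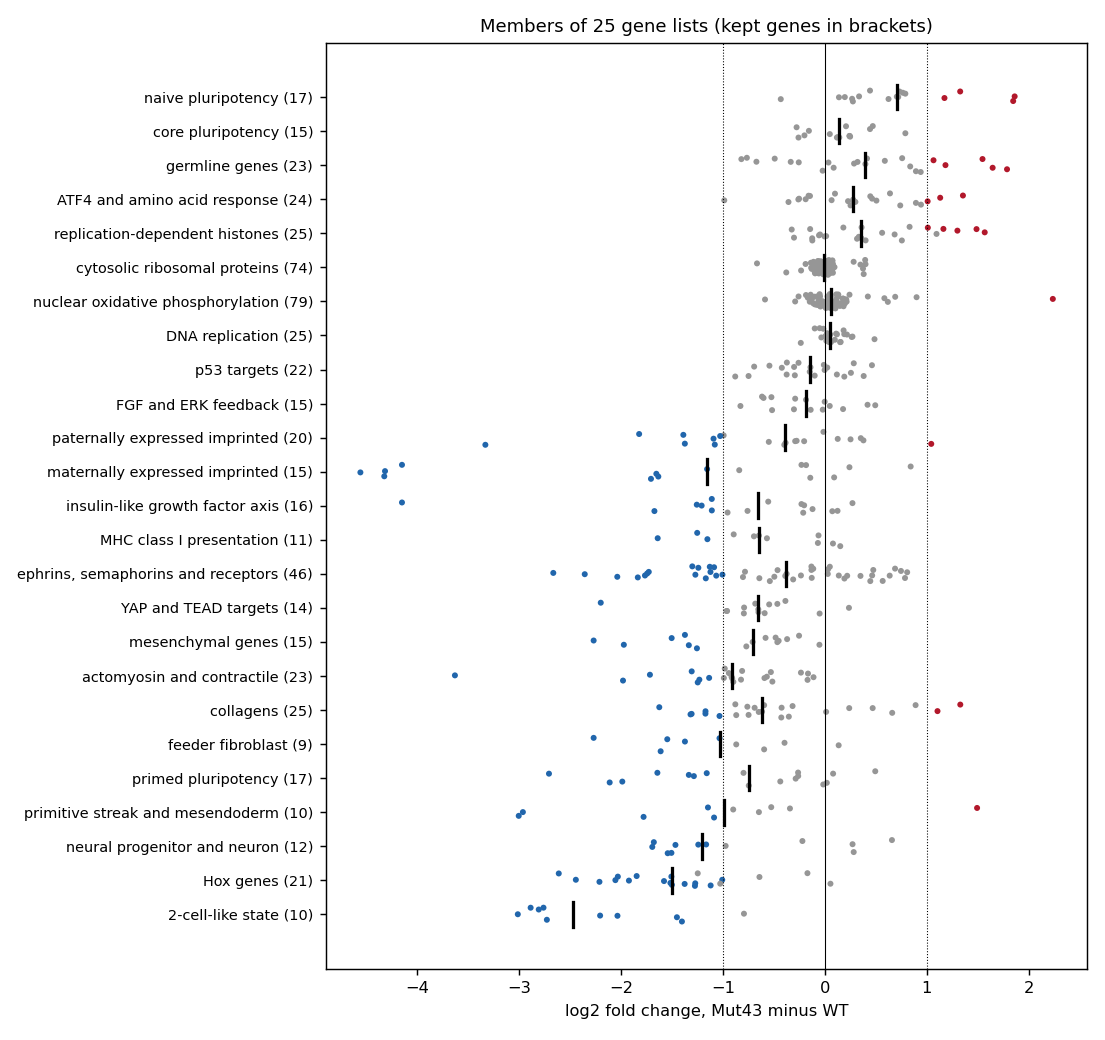
Log2 fold change of Mut43 over WT (horizontal axis) for the kept members of 25 gene lists (rows, number of kept genes in brackets). Each point is a gene, red if called higher, blue if called lower and grey if not called, and the black bar is the median of the list. The 2-cell-like, Hox, neural, maternally expressed imprinted and feeder fibroblast medians lie below -1, the naive median is at 0.71, and ribosomal, respiratory and replication genes lie around zero.

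Contractile genes were lower in Mut43 in every member of the list. All 23 were kept and all 23 passed the test as lower, 7 of them by more than 2-fold, against 24% lower over all kept genes, and the median was -0.91. Actc1 had 132 and 97.0 normalized counts in WT and 10.2 and 8.12 in Mut43 (-3.63, SE 0.275, adjusted p = 3.85e-11). Zyx (zyxin), a protein of focal adhesions and stress fibres, fell from 1715 and 1877 to 549 and 545 (-1.72). Acta1, the skeletal actin, fell by 1.31, Cnn1 (calponin) by 1.25, and the abundant tropomyosins Tpm4 and Tpm1 by 1.13 and 0.94. In each of these the lowest WT library was above the highest Mut43 library, as in every gene called lower. The smallest change was in Actn1 (-0.11).

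Many contractile genes carry CArG boxes, the sites of serum response factor. The promoters below are the 300 bases from 250 before to 50 after the annotated start in RefSeq (GRCm38.p6), 5′ to 3′ on the strand of the gene, for the 3 called members whose window holds a CArG box, which is in capitals.
Actc1, chr2:114052826-114053125, minus strand: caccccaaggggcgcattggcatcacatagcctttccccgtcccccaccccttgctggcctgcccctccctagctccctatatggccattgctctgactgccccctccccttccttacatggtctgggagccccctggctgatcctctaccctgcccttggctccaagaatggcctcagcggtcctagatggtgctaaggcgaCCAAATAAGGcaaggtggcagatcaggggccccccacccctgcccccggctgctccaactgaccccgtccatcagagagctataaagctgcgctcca
Acta1, chr8:123894726-123895025, minus strand: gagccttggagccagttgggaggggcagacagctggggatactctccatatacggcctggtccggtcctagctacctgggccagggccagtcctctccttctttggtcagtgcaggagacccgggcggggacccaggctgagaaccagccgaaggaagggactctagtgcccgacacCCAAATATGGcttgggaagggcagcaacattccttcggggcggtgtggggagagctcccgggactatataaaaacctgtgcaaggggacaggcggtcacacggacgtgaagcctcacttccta
Myl9, chr2:156775214-156775513, plus strand: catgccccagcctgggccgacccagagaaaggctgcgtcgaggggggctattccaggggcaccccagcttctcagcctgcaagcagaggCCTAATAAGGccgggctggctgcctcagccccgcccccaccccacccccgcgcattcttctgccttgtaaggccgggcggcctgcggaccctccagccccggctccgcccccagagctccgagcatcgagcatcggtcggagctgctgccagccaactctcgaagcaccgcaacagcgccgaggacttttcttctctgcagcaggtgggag
A CArG box was found in the windows of 5 of the 20 contractile genes matched to a promoter, 25% (Acta1, Actc1, Myl9, Cnn2 and Vcl), and in 1.81% of all 27025 genes with such a window and 1.60% of kept genes matched to one. The pattern reads the same on both strands. Among matched genes called lower it was in 2.09% and among those called higher in 1.30%. A match describes the letters only and is not evidence of binding.

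Matrix and mesenchymal genes fell beside them. Of 25 kept collagen genes, 6 were called lower and 2 higher, with a median of -0.62, and 8 more had been set aside because their WT libraries disagreed. Col12a1, a fibril-associated collagen, fell from 334 and 242 to 132 and 100.5 (-1.31), and Col9a2 rose by 1.33. Bgn (biglycan), a matrix proteoglycan, had 704 and 607 in WT and 192 and 169 in Mut43 (-1.86), Fbn1 (fibrillin) fell by 1.55 and Lox, which crosslinks collagen, by 1.45. Lama1, a laminin chain of the embryonic basement membrane, rose instead, from 606 and 599 to 1536 and 1538 (1.35). Among 15 mesenchymal genes 12 passed the test as lower and 6 were called, led by S100a4 (-2.27), Cdh11 (-1.97), Zeb2 (-1.50) and Twist1 (-1.37). Of 14 targets of YAP and TEAD, factors that respond to tension and cell shape, 12 passed the test as lower, but 1 was called, Nt5e (-2.20), and the median was -0.65.

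Markers of feeder fibroblasts were mostly lower as well, but they share genes with these lists. Col1a1, Col1a2, Col3a1, Dcn, Lum, Postn, Twist1 and S100a4 also stand in the collagen, matrix or mesenchymal lists. The marker list held 12 genes, of which Lum and Fap were too low to test and Col3a1, Dcn and Postn had been set aside. Of the 7 kept, 5 passed the test as lower, 3 were called lower and none higher, with a median of -0.87. Their summed level over all 12 was 4442 and 3231 normalized counts in WT and 2020.02 and 2039.7 in Mut43, a ratio of 0.529. None of the 12 was at 0 in every library, and Col1a1 remained at 1234.4 and 1268 in Mut43 against 1986 and 1797 in WT (-0.60). Of the kept markers outside the collagen, matrix and mesenchymal lists, Prrx1 fell by 1.61. Pdgfrb stood at -0.40 (adjusted p = 0.0548) and Thy1 at 0.13 (adjusted p = 0.545). A longer feeder fibroblast list of 14 genes, the one in the plot of lists, had 9 kept genes, 5 called lower (4 without WT replicate 1) and a median of -1.03. The part of feeder cells in the fall of contractile, matrix and mesenchymal genes was not tested. Which genes were kept was always decided from both WT libraries, so it could not change when WT replicate 1 was left out. Without that library the median of the 23 contractile genes was -0.86. That of the mesenchymal genes was -0.56 and that of the collagens -0.52.

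Insulin-like growth factor (IGF) components were mostly lower, with 6 of 16 kept genes called lower (4 without WT replicate 1) and none higher, 13 passing the test as lower, and a median of -0.66. Besides Grb10, the insulin receptor substrates Irs2 and Irs1 fell by 1.67 and 1.21. Irs2 had 284 and 276 normalized counts in WT and 92.6 and 83.2 in Mut43. Igfbp5, a binding protein, fell by 1.26, a call that was lost without WT replicate 1 (-0.91). Igf1r and Insr, the receptors, fell by 0.56 and 0.76, short of 2-fold, and the ligand Igf2 by 0.20.

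Germline genes were higher. Of 23 kept, 11 passed the test as higher and 4 as lower, 5 were called higher (6 without WT replicate 1) and none lower, and the median was 0.40. Tex19.1, which keeps retrotransposons in check in germ cells, had 385 and 375 normalized counts in WT and 1196 and 1181 in Mut43 (1.64, SE 0.0662, adjusted p = 1.65e-16). Tex14, needed for germ cell bridges, rose from 195 and 176 to 558 and 528 (1.55), the testis tubulin Tuba3a, which may share reads with a close copy, by 1.79, and the meiotic cohesin Smc1b by 1.18. Tex19.1 and Tex14 lie on chromosome 11. With the genes of that chromosome left out, 3 of 21 kept members were called higher and the median was 0.35. Among 9 kept genes of primordial germ cells, Dppa3, Prdm14 and Prdm1 (1.09) were called higher and none lower, and the former pair are also naive genes.

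Signalling pathways of the ESC state split. Lefty2, a Nodal inhibitor and itself a Nodal target, had 2285 and 2407 normalized counts in WT and 7199 and 7068 in Mut43 (1.60, SE 0.0451, adjusted p = 7.79e-20), while its neighbour Lefty1 stood at 0.17 and Nodal at -0.11. Fst (follistatin), which binds activin, fell from 256 and 231 to 74.3 and 73.1 (-1.72), and Inhba, an activin subunit, by 1.04, a call lost without Mut43 replicate 1 (-0.69). Of 18 kept Nodal and Activin genes these 3 were the called ones. In the BMP list 8 of 18 kept genes passed the test as lower and 2 as higher, with a median of -0.24. The called genes were Id2, which fell by 1.16, Id4, which rose by 1.04, and Nog, which was lower. Nog was below the mean count set for named genes, and the lowest value in the list was -1.77. Id1 and Id3 stood at -0.27 and -0.32. The change of Id4 was short of 2-fold without WT replicate 2 (0.93) or Mut43 replicate 2 (0.97), and its call was lost with scaling by library totals. No gene of the FGF and ERK feedback list was called (15 kept, median -0.18), though the ERK phosphatase Dusp6 fell by 0.83. The LIF list had 13 kept genes, 3 of them on chromosome 11, with a median of -0.10. Of these 13 genes, 5 passed the test as higher and 5 as lower. Osmr, below the mean count set for named genes, was the only one called, as lower. The lowest value in the list was -1.27. Stat3, on chromosome 11, was at 0.32 and Socs3 at 0.17.

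Fam25c, one of the genes named in the study, rose from 146 and 174 normalized counts in WT to 522 and 613 in Mut43 (1.82, SE 0.104, adjusted p = 1.45e-13). The lines did not overlap, as in every called gene.

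Genes of class I antigen presentation were lower, with 7 of 11 kept genes passing the test as lower, 3 of them called, and none higher. H2-D1, a classical class I chain, fell from 86.9 and 94.1 to 31.5 and 26.4 (-1.64), Erap1, a peptide-trimming enzyme, by 1.15, and B2m, the shared light chain, by 0.89, short of 2-fold. H2-K1, a close relative of H2-D1 that may share reads with it, stood at -0.063 (adjusted p = 0.576). The list of interferon response genes did not follow. Of 14 kept, none was called (1 higher without WT replicate 1), 8 passed the test as higher and 4 as lower. The highest value in this list was 0.92. It did not hold Zbp1 (2.45), the antiviral helicase Ddx60 (2.40) or the interferon-induced gene Ifi35, described below, all higher in Mut43.

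The stress and metabolic lists held few called genes. In the ATF4 list, Chac1, which degrades glutathione, rose by 1.35, and Nupr1 and Trib3 were also called (1.13 and 1.01), with a list median of 0.28 over 24 kept genes and 1 member called lower without WT replicate 1. Nupr1 was short of 2-fold without WT replicate 2 (0.82), as was Trib3 without WT replicate 1 (0.95) or Mut43 replicate 2 (0.94). With scaling by library totals the list had 2 members called higher and 1 lower. Of 40 kept genes of glutathione and oxidant defence, Gpx2 and Gstm6 (1.07) were called higher and Mgst1 (-1.92) and Gpx8 (-1.29) lower, around a median of 0.01. The hypoxia list had 1 call, the adenylate kinase Ak4 (1.04), and the glycolysis list 1, Aldoc (1.01), which lies on chromosome 11. With scaling by library totals neither was called, and Ak4 stood at 0.99. Aldoc was short of 2-fold without WT replicate 1 (0.97). Among apoptosis genes Bcl2, a survival factor, fell from 69.3 and 66.6 to 17.3 and 13.2 (-2.15). None of 22 p53 targets was called, and their median was -0.15.

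Housekeeping programmes were level. The 74 cytosolic ribosomal protein genes had a median of -0.01, the 79 nuclear genes of oxidative phosphorylation 0.06, the 38 proteasome genes 0.07, the 25 cholesterol synthesis genes 0.04, the 25 DNA replication genes 0.05 and the 21 mitosis genes 0.02, and 1 gene among all of these was called, Ndufa4l2 of the oxidative phosphorylation list (2.23). Rpl4, a ribosomal protein, had 40098 and 40998 normalized counts in WT and 42190.4 and 41743 in Mut43 (0.05, adjusted p = 0.329), and Pcna, the replication clamp, 6704 and 7162 in WT and 7222 and 6699 in Mut43 (0.0057, adjusted p = 0.931). Replication-dependent histone genes, whose transcripts lack a poly(A) tail, had 5 of 25 kept genes called higher (4 without WT replicate 1 and 2 without WT replicate 2), all H3 genes of the Hist1 cluster with low counts that are near-copies of each other. Enzymes and readers of H3K27 marks held no called gene among 17. Ep300, an acetyltransferase, stood at -0.059 and Ezh2, the Polycomb methyltransferase, at -0.021, while Suz12, a Polycomb subunit encoded on chromosome 11, passed the test as higher (0.87). Of 62 lists with kept members, 17 had a median below -0.5, 1 a median above 0.5, and 18 held no called member. Lists overlap, and genes such as T, Actc1, Grb10 and Fbn1 stand in more than 1.

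Genes of chromosome 11 were higher as a group. Its 1161 kept genes had a median log2 fold change of 0.38, 83.0% lay above zero, and 95 were called higher and 27 lower, which is 8.18% and 2.33% against 3.13% and 6.47% over all kept genes. The medians of the other autosomes lay between -0.08 and 0.06. Between the 2 WT libraries the median of chromosome 11 differed by 0.01, and between the 2 Mut43 libraries by 0.01. Genes called higher on this chromosome include Tex19.1, Lgals9, Notum and Xbp1, a factor of the unfolded protein response (1.03). Xbp1 was short of 2-fold without WT replicate 2 (0.98), and its call was lost with scaling by library totals. A fit without the chromosome gave 351 genes higher and 804 lower. Genes of the X chromosome had a median of -0.16 and 11.4% of them were called lower. The 6 kept genes of the Y chromosome all lay above zero, with a median of 0.97. Ddx3y, a helicase, had 1183 and 1133 normalized counts in WT and 1832 and 1662 in Mut43 (0.59), and Uba1y rose from 88.8 and 94.1 to 234 and 242 (1.38). The pair was picked with their values known.

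**Figure D4:**
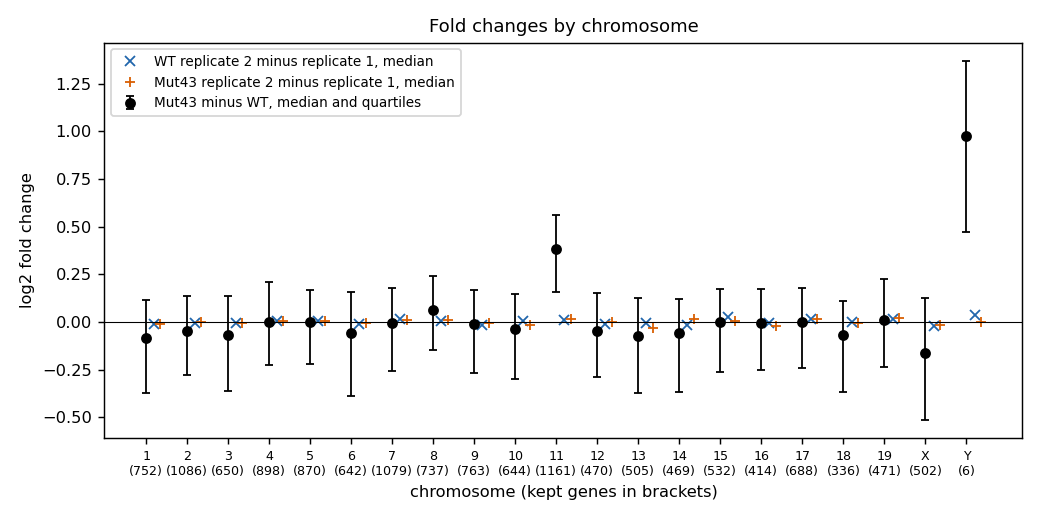
Median log2 fold change of Mut43 over WT for the kept genes of each chromosome (black points, bars from the lower to the upper quartile), with the median difference between the 2 WT libraries (blue crosses) and the 2 Mut43 libraries (orange plus signs). Chromosome 11 is at 0.38 and the 6 genes of chromosome Y at 0.97, while the differences between libraries of a line stay near zero on every chromosome.

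ATAC-seq peaks of the same lines gave a second readout at the promoters of called genes. A gene counted as having a peak in a library when one lay within 1000 bp of an annotated start. Of 881 genes called lower with a place on the genome, 78.3% had a peak in all 4 ATAC-seq libraries, and 22 (2.50%, 95% Wilson interval 1.65 to 3.75) had one in both WT libraries and neither Mut43 library, against 0.876% of 12325 genes that were not called. No gene called lower had one in Mut43 only. Of 422 genes called higher, 61.6% had a peak in all 4 libraries, 8 (1.90%, 0.964 to 3.70) in both Mut43 libraries and neither WT library, against 0.0487% of genes not called, and 7 (1.66%) in WT only. The intervals cover counting error only, and most called genes kept the same peak state in both lines. WT libraries had more promoters with a peak among genes not called (95.5% and 94.2% against 93.4% and 92.7% in Mut43), and the part of library quality or depth in these shares was not tested.

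The genes whose peak followed their expression include Gpx2 and Ifi35, an interferon-induced gene on chromosome 11, with a peak in Mut43 only, and Gja1, a gap junction protein, and the imprinted Peg13 with a peak in WT only. Gja1 had 4275 and 4185 normalized counts in WT and 2083 and 1959.5 in Mut43 (-1.07), and Ifi35 47.8 and 69.6 in WT and 209 and 259 in Mut43 (1.99). Both were picked with their values known. The strongest peak at Gpx2 had a fold enrichment over background of 5.23 and 5.13 in the Mut43 libraries, that at Ifi35 3.20 and 3.54, and that at Gja1 3.70 and 4.25 in the WT libraries. The 300 bases around the RefSeq starts of these 3 genes are shown because peak calls within 1000 bp of an annotated start differed between the lines. Whether the peaks overlap these bases was not checked. The sequences follow in the layout used above, with matches to the AP-1 motif TGANTCA in capitals.
Gpx2, chr12:76795505-76795804, minus strand: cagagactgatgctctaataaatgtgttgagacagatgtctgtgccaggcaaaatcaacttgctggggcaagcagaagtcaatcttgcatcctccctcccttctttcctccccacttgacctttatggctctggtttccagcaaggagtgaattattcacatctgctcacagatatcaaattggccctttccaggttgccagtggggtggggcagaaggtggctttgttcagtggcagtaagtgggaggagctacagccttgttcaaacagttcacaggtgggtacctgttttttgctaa
Ifi35, chr11:101448162-101448461, plus strand: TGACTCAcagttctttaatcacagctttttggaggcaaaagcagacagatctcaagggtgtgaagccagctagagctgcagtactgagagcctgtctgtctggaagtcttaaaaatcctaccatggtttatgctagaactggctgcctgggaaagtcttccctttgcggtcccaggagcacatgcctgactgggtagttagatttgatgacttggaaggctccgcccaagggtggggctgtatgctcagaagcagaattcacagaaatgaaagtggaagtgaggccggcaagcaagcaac
Gja1, chr10:56377050-56377349, plus strand: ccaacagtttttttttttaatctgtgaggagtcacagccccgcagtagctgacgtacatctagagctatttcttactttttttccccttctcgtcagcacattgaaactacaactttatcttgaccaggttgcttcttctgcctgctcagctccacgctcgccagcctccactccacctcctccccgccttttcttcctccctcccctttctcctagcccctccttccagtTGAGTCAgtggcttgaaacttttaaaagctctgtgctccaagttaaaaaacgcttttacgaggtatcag
Gja1 holds 1 match, which begins 19 bases before the start, Ifi35 holds 1 match at the far end, 250 bases before it, and the window of Gpx2 holds none. The motif is its own reverse complement. It was present in 8.97% of all 27025 genes with a window, in 5.97% of matched kept genes, in 11.7% of the matched genes called higher and in 8.20% of those called lower.

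Few genes differed between Mut43 and the other clone, Mut18, when the difference was tested in the same fit. At an adjusted p under 0.05, 9 genes were higher in Mut43 than in Mut18, 0.064% of 14061 tested, and 37 were lower, 0.263%. Among all of them 1 gene, Wdr77, differed by more than 2-fold. At an unadjusted p under 0.05 there were 1198, and DESeq2 called 7 higher and 18 lower. Of the 23 contractile genes 6 were lower in Mut43 and none higher, with a median difference of -0.31 against -0.0012 over all tested genes. Matrix remodelling genes had 3 of 19 lower (median -0.15), and matrix glycoproteins and proteoglycans 2 of 22 (median -0.02). Of 33 tested collagens 1 was lower (median -0.11). Acta2, the smooth muscle actin, had 1555 and 1268 normalized counts in Mut43 and 2319 and 2025 in Mut18, a log2 difference of -0.62 (SE 0.0694, adjusted p = 1.09e-05). Cald1, an actin-binding regulator, differed by -0.37, Tnc, a matrix glycoprotein, by -0.59, Col1a1 by -0.41 and Car2, a carbonic anhydrase, by -0.43. In each of these both Mut43 libraries were below both Mut18 libraries.

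Of the genes higher in Mut43 than in Mut18, Tbx3 had 818 and 844 against 622 and 653 (0.38, adjusted p = 0.00694), Gm10324 differed by 0.34, and Lars2, a mitochondrial tRNA synthetase, by 0.32. Wdr77 and Atp5f1 differed by 1.07 and 0.99, and in both it was Mut18 that stood apart from WT. Wdr77 had 4553 and 4364 in Mut43 and 3864 and 3935 in WT, against 2081 and 2152 in Mut18. H3f3b itself was higher in Mut43 than in Mut18 by 0.19 (adjusted p = 0.0402). Both clones were compared with the same WT libraries, so their changes against WT are set side by side only. For Acta2 they were -0.91 in Mut43 and -0.29 in Mut18, for Zyx -1.72 and -1.28, for Nes -1.68 and -1.37, for Meg3 -4.32 and -4.17 and for Dppa3 1.85 and 1.85. With any 1 library of the clones left out, 2 to 3 genes were called higher and 6 to 10 lower.

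**Figure D5:**
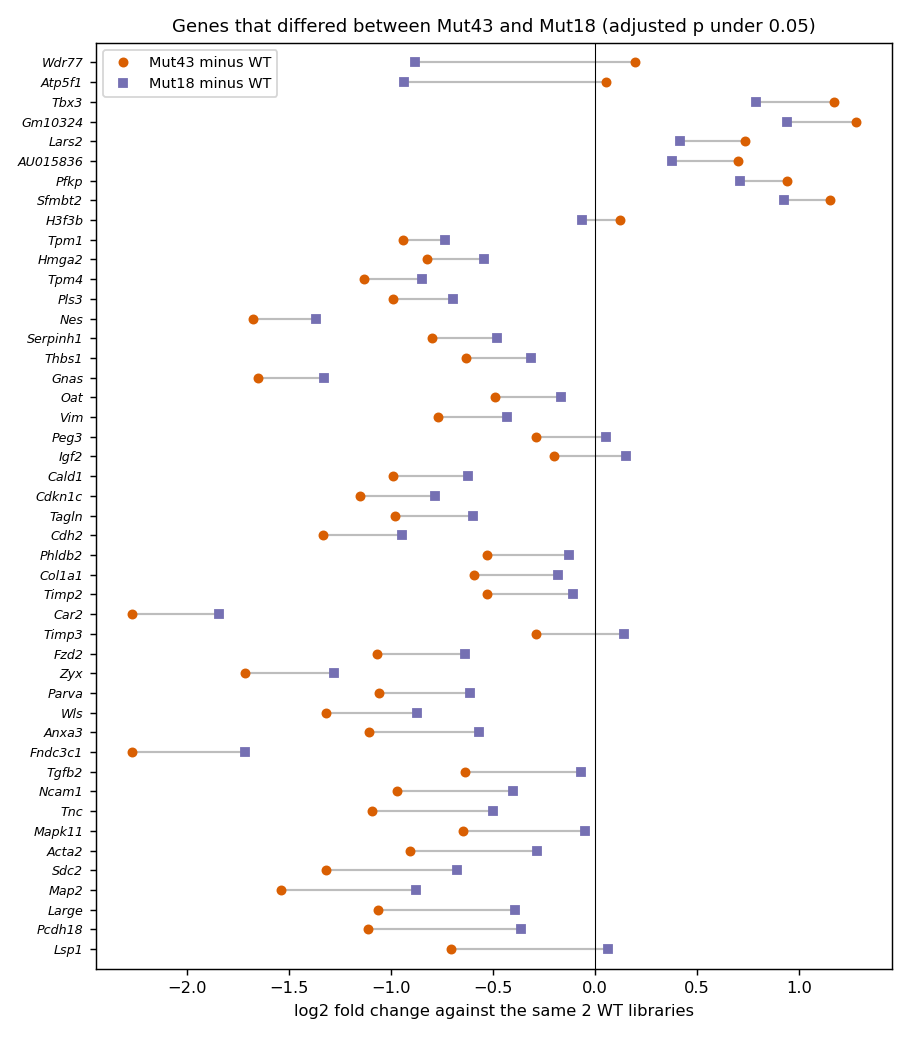
Log2 fold change against the same 2 WT libraries for the 46 genes that differed between the clones, with orange circles for Mut43 and purple squares for Mut18, joined by a line for each gene. In the 37 genes lower in Mut43 the circle is to the left of the square, and at Wdr77 and Atp5f1 Mut18 is far below zero while Mut43 is near it.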

How the data were processed

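mRNA-seq was made from total RNA (TRIzol) of 2 biological replicates of WT and of each of the H3.3K27R clones Mut43 and Mut18. The authors deposited raw counts per gene. Their processing notes name STAR, SAMtools and DESeq2 with mm10, and Bowtie2 2.3.4.2, deepTools 3.3.0 and MACS2 for other assays. The counter, its strand setting and the versions of the RNA tools are not given in the sources used here. For ATAC-seq the authors deposited 1 MACS2 peak list a library, in which each peak has its fold enrichment and −log10 q-value, and the authors' lists hold peaks above a −log10 q of about 6, the lowest value in any library being 6.00.

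Samples were grouped by line and replicate as labelled. Counts of all 6 libraries were fitted in R 4.3.3 with edgeR 4.0.16 (TMM scaling, filterByExpr with a minimum count of 10 and a total of 15, quasi-likelihood F-test, Benjamini-Hochberg adjustment over 14061 genes), and Mut43 was contrasted with WT and with Mut18. A gene was called at an adjusted p under 0.05 and a change above 2-fold. Genes whose WT libraries were more than 2 times apart were set aside after the test. Normalized counts are counts scaled by the TMM library sizes. DESeq2 1.42.0 served as an alternative, as did other scalings, filters, thresholds, a replicate block and leaving out each library. On simulated counts for Mut43 against WT over 13860 genes, 200 genes were changed. Of the 100 changed by at least 4-fold, 98 were called, with 5 false calls. Recovery of smaller changes is not given here. The simulated spread of a gene followed its expression level alone, and no library was made to stand apart. These rates therefore need not hold for the real counts. Positions came from GENCODE and promoters from RefSeq (GRCm38.p6), and tables were joined in Python 3.11.15 with pandas 2.3.3. The p-values measure the spread between the replicate libraries, and depth was between 14992756 and 15143998 counts in each of the 6.

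The genes and lists were chosen with earlier results of these data known. The text names H3f3a, H3f3b, Pou5f1, Nanog, Lefty2 and Fam25c, the 12 largest rises and the 12 largest falls among called genes that averaged 50 or more normalized counts in either line without overlap between lines, up to 4 such called members of each list or, where none was called, 1 or 2 members with the highest counts, and, between the clones, the 5 lowest p-values on each side. Every other gene named was chosen after its values were seen. Some genes that meet this rule are not reported here. The ChIP-seq files were not used here.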

Additional observations from a re-analysis of the deposited data

Results flagged for a closer look

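The change against WT differed between the clones in 21 of the genes named, by the direct test of Mut43 against Mut18 in the edgeR fit. Both changes rest on the same WT libraries. Some genes were named for their p-value in this test or after their values were seen, so their number is no result. Over all 14061 tested genes, 0.064% were higher in Mut43 and 0.263% lower. The largest differences, as log2 of Mut43 minus Mut18, were 1.07 in Wdr77 and 0.99 in Atp5f1, where Mut18 was the line apart from WT. Of 23 contractile genes 6 were lower in Mut43 and none higher, among them Acta2 (-0.62), Zyx (-0.44), Cald1 (-0.37), Tpm4 (-0.28) and Tpm1 (-0.20). The matrix genes Tnc and Col1a1 differed by -0.59 and -0.41. The imprinted genes Igf2, Peg3 and Gnas stood at -0.35, -0.34 and -0.32, and N-cadherin (Cdh2) at -0.39. Car2 (-0.43), the neural genes Nes (-0.31) and Map2 (-0.66) and the cell cycle inhibitor Cdkn1c (-0.37) were lower as well. Higher in Mut43 were the naive gene Tbx3 (0.38), Gm10324 (0.34), Lars2 (0.32) and H3f3b (0.19). The summed level of the feeder fibroblast markers also differed between the clones, with 2020.02 and 2039.7 normalized counts in Mut43 and 2694 and 2613 in Mut18, and its part in these differences was not tested.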

How the results depend on the processing

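For the 166 genes covered, 2127 of 2236 alternative values stayed on the same side of the thresholds. No direction against WT reversed where the main or the alternative value passed its test. A change of sign where neither passed was counted as unchanged, so directions of genes near zero are not covered. The counts higher and lower against WT were 184 and 400 with a mean of at least 50 counts, 3155 and 3292 without a fold threshold, 108 and 270 when glmTreat tested against 2-fold, and 323 and 699 with DESeq2. Leaving out 1 library gave 369 to 415 higher and 776 to 880 lower. The lowest count lower, 776, was without WT replicate 1, of which 729 were also called with all libraries. Library totals gave 377 and 970 and moved the median of all kept genes to -0.050. Replicate numbers did not pair the libraries, since the deviations of same-numbered libraries correlated between -0.012 and 0.024, and the fit with the replicate block called 426 and 886 genes, and 6 and 32 between the clones. Between the clones, keeping all genes with a count gave 5 higher and 19 lower, DESeq2 gave 18 lower, and leaving out 1 library gave 2 to 3 higher and 6 to 10 lower. The change of H3f3b was 0.074 with library totals and 0.098 with the upper quartile, and 0.12 to 0.13 with 1 library left out, and it passed the test in the last case only without WT replicate 2, and with neither scaling. The number of lists with a median above 0.5 was 3 with a mean of at least 50 counts and 2 without WT replicate 2. The median of chromosome 11 was 0.33 with library totals and 0.36 with the upper quartile, and 0.37 to 0.40 with 1 library left out. Promoter peaks in WT only among genes called lower were 3.97% at a −log10 q of at least 10 and 2.72% to 6.02% with 1 ATAC-seq library left out, and those in Mut43 only among genes called higher were 1.90% to 4.27%. Peaks in all libraries among genes called lower were 73.3% within 500 bp, 82.4% within 2000 bp and 75.3% at the stricter q, with 78.3% to 81.8% when 1 library was left out, and among genes called higher 56.9% within 500 bp and 70.9% within 2000 bp. Precision is limited by 2 libraries a line and by counts per gene.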
